A study of Gallus gallus with 6 samples.

Results

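The genes described here are those of glucose use in the uterovaginal junction of breeder hens: the enzymes of glycolysis and of glucose synthesis from smaller molecules, the enzymes of glycogen, and the carriers of glucose and lactate. They were chosen by gene symbol from a list of 34 names, which was made with earlier results of these data known. The deposited table of 20285 rows holds 29 of them, 1 row each, and 26 of the 29 had enough counts to be tested. No row carries the symbol ALDOA, PGK1, PYGL, SLC2A3 or PCK2, and these 5 were not analysed here. The uterovaginal junction is the stretch of the oviduct between the shell gland and the vagina in which sperm are stored in tubules. RNA was measured by poly-A RNA-seq in 2 groups of 3 libraries. The thermoneutral group was held at 23 °C and the heat stress group at 36 °C for 6 h. Each library pools the RNA of 4 hens out of 24 tissues in all, so a replicate is a pool and the p-values measure the spread between pools. The labels give neither the breed line nor the age of the hens.

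Glycolysis splits glucose into pyruvate in the cytosol and yields ATP without oxygen. Hexokinase and phosphofructokinase are among its main control steps. Lactate dehydrogenase interconverts pyruvate and lactate, which crosses membranes through monocarboxylate transporters. Glycogen synthase and glycogen phosphorylase store and release glucose. Fructose-bisphosphatase and phosphoenolpyruvate carboxykinase are among the enzymes that run steps specific to gluconeogenesis. In Japanese quail, lactic acid has been described as a factor that quiets sperm in the storage tubules.

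Library totals ran from 23438814 to 29502991 counts. On the first principal component of all tested genes, heat stress replicate 1 (score 10.9) lay nearer to the thermoneutral libraries (−33.7 to −27.1) than heat stress replicates 2 and 3 did (44.1 and 37.1). Oviduct genes of the labelled tissue were present: the progesterone receptor gene PGR lay between 467 and 632 CPM and the duct transcription factor gene PAX2 between 171 and 212 CPM in all 6 libraries. No row carries the symbol PAX8, HOXA13 or MUC5B, which leaves 7 of the 10 oviduct genes listed. CPM are counts relative to the TMM-scaled library size, and they compare a gene between libraries. FPKM are also divided by gene length and are used wherever levels of different genes are compared. The spans of 6 of the 29 rows overlap another row (LDHA, PFKL, HK2, PGAM1 and PFKFB4 on the opposite strand, PKM on the same strand), and since the strand setting of the counting is not given, reads of such pairs are not certain to be separate.

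Under heat stress some of the genes of glucose use had lower transcript levels, by modest amounts. Of the 26 genes tested, 11 fell, 1 rose and 14 did not pass the test (edgeR's quasi-likelihood test, Benjamini-Hochberg adjusted p under 0.05). Over all 15655 genes tested, 9.52% were lower and 10.2% higher, 19.8% in either direction, against 46.2% of the 26. HK1, PFKL, ALDOC, TPI1, GAPDH, ENO2, LDHA, LDHB, FBP1, GYS1 and PYGB fell, between 1.24-fold and 1.92-fold, and PKM rose 1.30-fold. The median log2 change of the 26 was −0.32, and 22 of the 26 values were below 0. For all genes tested the median was −0.01, which TMM scaling holds near 0. With a stricter filter on low counts, 12.7% of the 11854 genes then tested were lower and 12.0% higher, against 12 and 0 of 24 genes of glucose use. No comparison with genes of a matched level was made. In a bulk tissue, fewer cells of a type and less RNA per cell cannot be told apart.

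**Figure D1:**
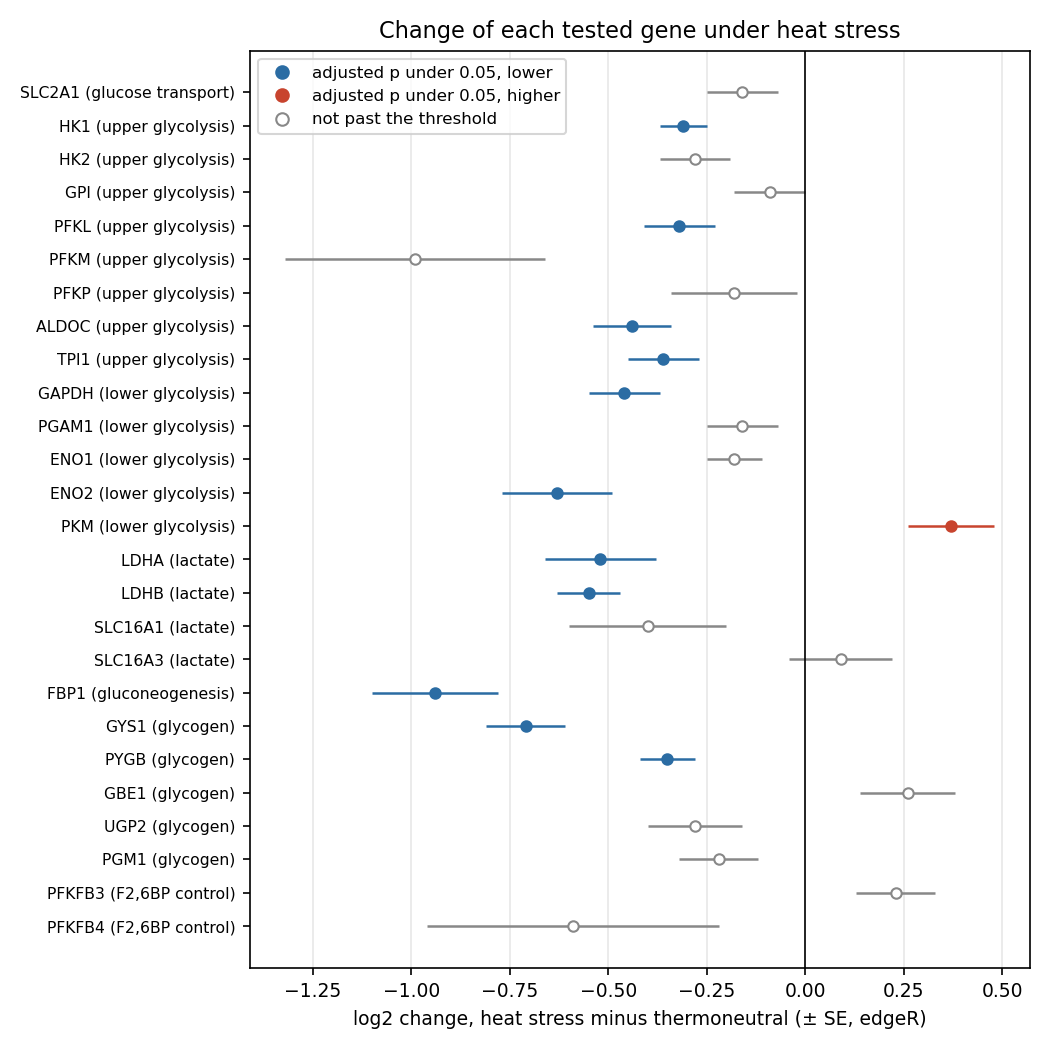
Log2 change of each of the 26 tested genes, heat stress minus thermoneutral, with its SE (3 libraries per group); filled points passed the adjusted threshold of 0.05 and open points did not, and the role of each gene stands in brackets. The 11 blue points lie between −0.94 for FBP1 and −0.31 for HK1, and PKM is the red point at 0.37.

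The summed counts, which are the same data, show the same shift. Together the 29 rows held 0.682%, 0.728% and 0.726% of the counts of thermoneutral replicates 1, 2 and 3, and 0.571%, 0.554% and 0.563% of those of heat stress replicates 1, 2 and 3. The groups did not overlap. These percentages are of unscaled totals, while the TMM factors were 1.03 to 1.04 in the thermoneutral and 0.945 to 0.989 in the heat stress libraries. Scaling narrows the relative gap. After scaling, the sum was 6878 ± 294 CPM in the thermoneutral and 5835 ± 46.5 CPM in the heat stress group (SD, n = 3 each), and GAPDH alone gave 15.5% to 19.7% of the counts of the 29 rows. Gene by gene, all 3 heat stress libraries lay below all 3 thermoneutral libraries in 14 of the 26 tested genes, against 21.0% of all genes tested, and above them in 1, against 21.5% (42.6% of all genes in either direction). The 14 are the 11 that fell together with HK2, PFKM and ENO1, which did not pass. Relative to the thermoneutral mean, the median gene of the 26 stood at −0.24, −0.40 and −0.33 on the log2 scale in heat stress replicates 1, 2 and 3. The median of all tested genes stayed between −0.02 and 0.00, but TMM scaling itself holds that median near 0. With upper-quartile scaling the median log2 change was −0.36 for the 26 and −0.05 for all genes tested.

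**Figure D2:**
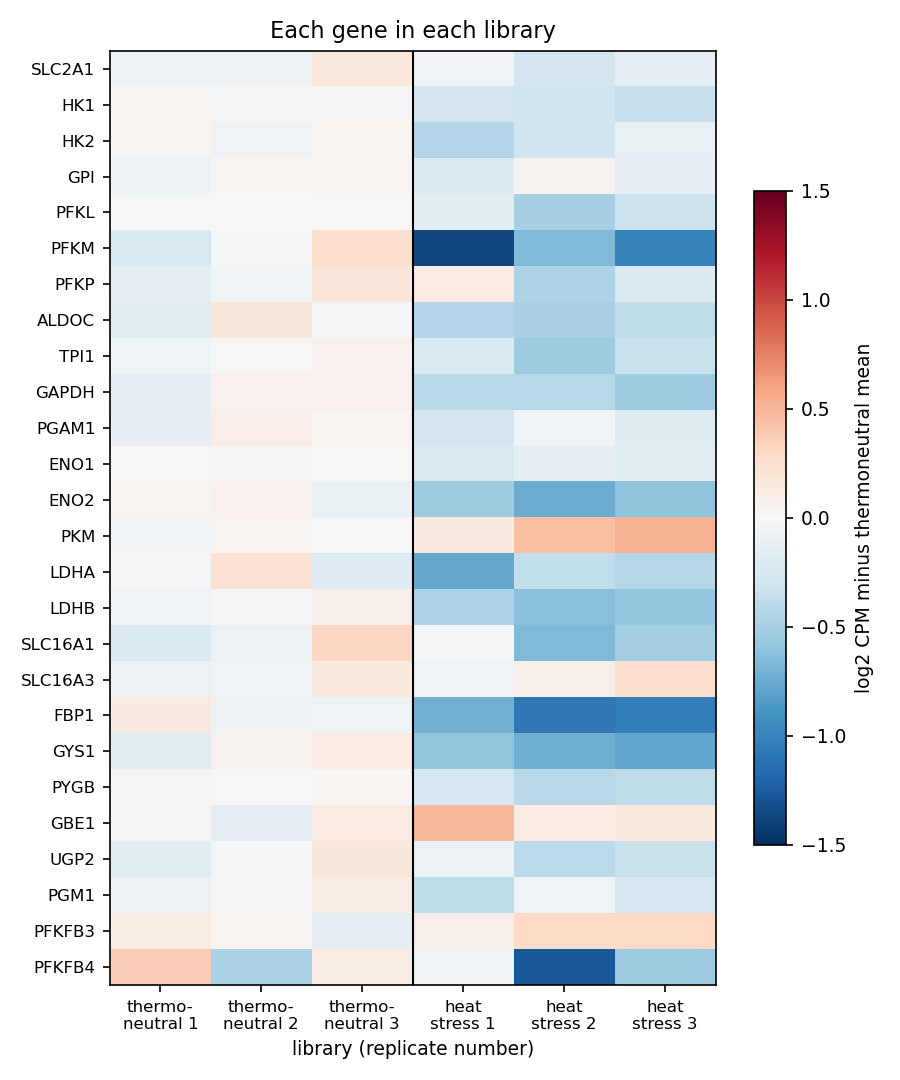
Log2 CPM of each tested gene in each of the 6 libraries, as the difference from that gene's thermoneutral mean (colour scale; columns are libraries, rows are genes in pathway order). Most rows turn blue in the 3 heat stress columns, while PKM turns red, from 631 to 669 CPM in the thermoneutral libraries to 716, 888 and 932 CPM in the heat stress libraries.

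At the thermoneutral temperature the highest levels were those of GAPDH and ENO1, genes of the lower glycolytic steps. GAPDH, the enzyme that oxidises glyceraldehyde 3-phosphate, had the highest level per length (984 ± 69.4 FPKM, n = 3), followed by the enolase gene ENO1 (494 ± 3.95 FPKM). ALDOC, LDHB, PGAM1 and PKM came next, at 333, 307, 295 and 282 FPKM, and neighbours in that run overlapped in their library values. LDHA and TPI1 followed at 175 and 173 FPKM, which also overlapped, then GPI at 151 and PYGB at 130 FPKM. PFKP, HK1, SLC2A1 and HK2 lay between 53.8 and 96.7 FPKM. The glycogen enzymes GYS1, GBE1 and UGP2 stood between 15.3 and 17.8 FPKM, and FBP1, ENO2, SLC16A3, PFKFB4 and PFKM between 0.538 and 7.2 FPKM.

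FBP2, PCK1 and GYS2, the forms of these enzymes best known from muscle, from liver and kidney, and from liver, were at or near 0 and were not tested. The raw count of PCK1 was 0, 2 and 0 in the thermoneutral and 0, 1 and 1 in the heat stress libraries. FBP2 had at most 5 counts and GYS2 at most 7 counts in any library. A library at 0 allows up to 3 counts, which is 0.108 to 0.130 CPM here and covers counting error only. Transcripts of PCK1, the cytosolic enzyme that commits oxaloacetate to glucose synthesis, were therefore not measurable at this depth in either group.

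**Figure D3:**
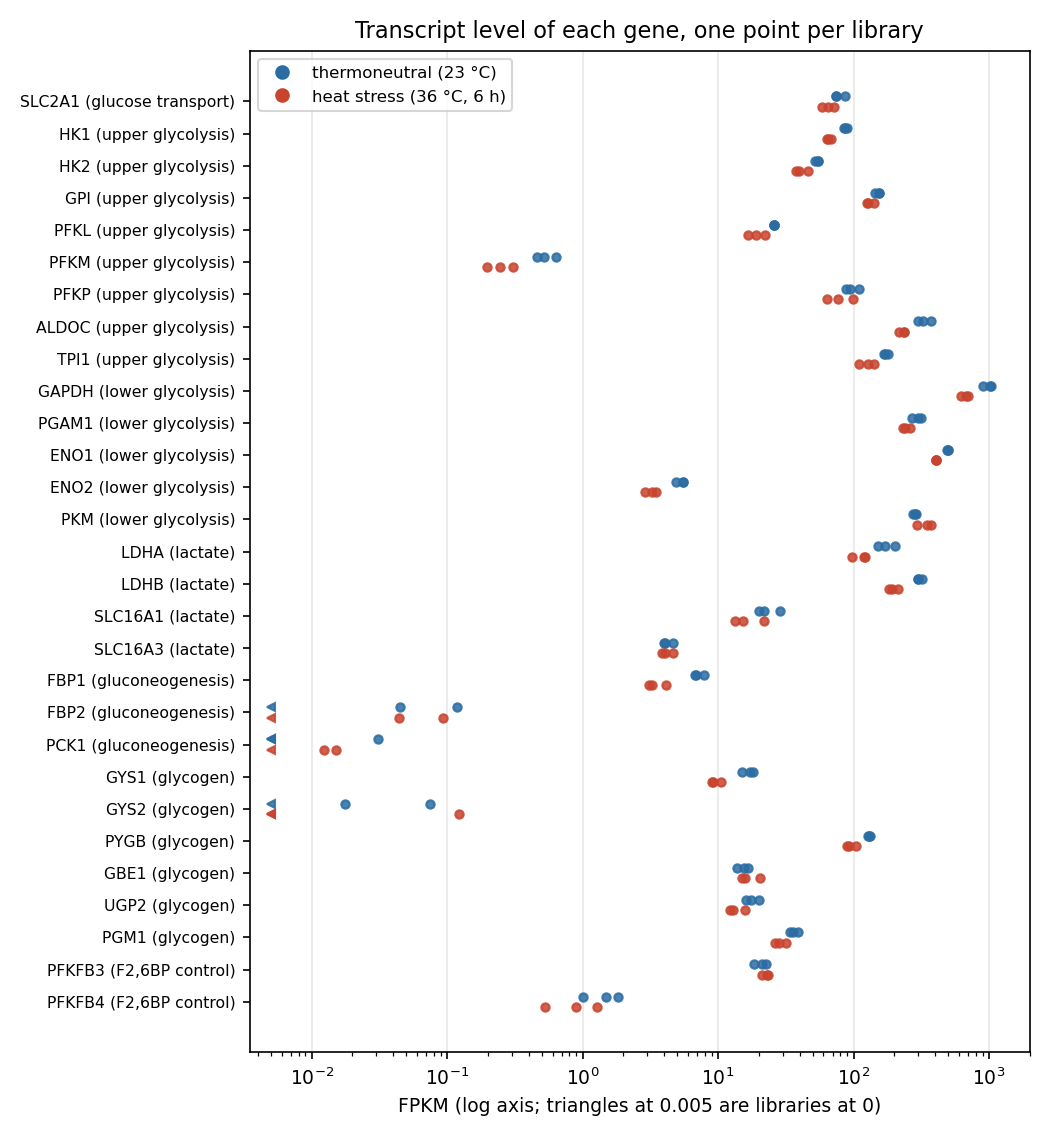
Deposited FPKM of each of the 29 genes (log axis), with 1 point per library for the 3 thermoneutral and the 3 heat stress libraries; triangles at the left edge are libraries listed at 0. GAPDH tops the plot at 904 to 1028 FPKM in the thermoneutral libraries, and FBP2, PCK1 and GYS2 lie far to the left.

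SLC2A1, which encodes the widespread facilitative transporter GLUT1, was the only glucose carrier of the chosen list with a row. Its level was 167, 167 and 196 CPM at the thermoneutral temperature and 170, 146 and 159 CPM under heat stress, so the groups overlapped (log2 change −0.16, SE 0.09, adjusted p = 0.254). It does not stand for all glucose entry: SLC5A1, a glucose transporter outside that list, fell 1.54-fold (adjusted p = 0.0135) and is described below. HK1 and HK2 trap the sugar as glucose 6-phosphate. HK1, the form found in most tissues (chromosome 6, 11585402 to 11612168, build GRCg6a), fell 1.24-fold, from 388, 376 and 375 to 311, 308 and 298 CPM (SE 0.06, adjusted p = 0.019). The spread within each group was small: 380 ± 7.26 and 306 ± 6.81 CPM. HK2, the form that responds to insulin and low oxygen in mammals, went from 186, 177 and 186 to 135, 149 and 169 CPM. All 3 heat stress libraries were lower, but the gene did not pass (log2 change −0.28, SE 0.09, adjusted p = 0.0676), and it did pass with DESeq2 (adjusted p = 0.0421), with upper-quartile scaling (0.0455) and with a stricter filter on low counts (0.0473).

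Further down the upper part of the pathway, GPI, which turns glucose 6-phosphate into fructose 6-phosphate, stayed between 255 and 304 CPM in all 6 libraries (log2 change −0.09, SE 0.09, adjusted p = 0.477). The phosphofructokinase genes gave different outcomes. PFKL, the liver-type subunit, fell 1.25-fold, from 84.9, 86.1 and 85.7 to 76.4, 60.4 and 68.3 CPM (adjusted p = 0.0453). With the replicate number as a block it did not pass (adjusted p = 0.0556). PFKP, the platelet-type subunit, made up 78.4 ± 1.81% of phosphofructokinase FPKM at the thermoneutral temperature and 80.1 ± 1.46% under heat stress, and its own level overlapped between groups (255, 275 and 320 against 307, 204 and 242 CPM, adjusted p = 0.452). PFKM, the muscle-type subunit, was near 1 CPM, with 24 to 35 counts in the thermoneutral and 11 to 20 counts in the heat stress libraries. It did not pass (log2 change −0.99, SE 0.33, adjusted p = 0.0727), and the precision of such counts is low.

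Aldolase cuts the 6-carbon sugar phosphate and triosephosphate isomerase interconverts the products. ALDOC fell 1.36-fold, from 439, 548 and 484 CPM to 360, 348 and 375 CPM (log2 change −0.44, SE 0.10, adjusted p = 0.0209). TPI1 fell 1.28-fold, from 250, 261 and 272 to 224, 180 and 207 CPM (adjusted p = 0.035). In neither gene did the groups overlap. ENO2 lies near TPI1 on chromosome 1, at 77952924 to 77962832 against 77940005 to 77943711, with the row of LRRC23 between them.

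GAPDH, often used as a reference gene in quantitative PCR, fell 1.37-fold. Its level was 1210, 1390 and 1382 CPM in the thermoneutral and 996, 996 and 910 CPM in the heat stress libraries (log2 change −0.46, SE 0.09, adjusted p = 0.0169). The difference was larger than the spread within groups, and it kept its sign under each scaling. It also did so with each library left out, which could hardly turn the sign because the groups did not overlap. ENO1, the main enolase, was lower in each heat stress library (695, 737 and 720 against 807, 820 and 809 CPM) but did not pass with edgeR (log2 change −0.18, SE 0.07, adjusted p = 0.110); with DESeq2 its adjusted p was 0.0325. ENO2, the enolase best known from neurons, fell 1.55-fold, from 11, 11.1 and 9.91 to 7.35, 6.35 and 7 CPM (adjusted p = 0.022), and was 1.07% of enolase FPKM in the thermoneutral and 0.785% in the heat stress group. PGAM1, phosphoglycerate mutase, overlapped between groups, at 441, 516 and 489 against 397, 468 and 425 CPM (adjusted p = 0.249).

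PKM, pyruvate kinase of most non-hepatic tissues, catalyses the last step and was the tested gene that rose. It measured 631, 669 and 655 CPM at the thermoneutral temperature and 716, 888 and 932 CPM under heat stress (chromosome 10, 2035713 to 2053005; log2 change 0.37, SE 0.11, adjusted p = 0.0491). Heat stress replicate 1 showed the smallest rise. The call is narrow: the adjusted p was 0.0672 with upper-quartile scaling and 0.0562 with a stricter filter on low counts, and when each library was dropped in turn it passed 1 time of 6, without heat stress replicate 1 (0.00713). The same-strand row that overlaps PKM, GRAMD2A, had 8.58 and 9.63 CPM in the 2 groups, far below PKM.

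Both subunits of lactate dehydrogenase fell, and by about the same amount. LDHB, the heart-type subunit (chromosome 1, 67031006 to 67040698), had 391, 397 and 429 CPM in the thermoneutral and 295, 263 and 272 CPM in the heat stress libraries (1.47-fold, log2 change −0.55, SE 0.08, adjusted p = 0.0092). LDHA, the muscle-type subunit, had 207, 245 and 184 against 124, 163 and 156 CPM (1.44-fold, SE 0.14, adjusted p = 0.0366). TSG101 and UEVLD overlap LDHA on the opposite strand, and their log2 changes were −0.09 (adjusted p = 0.389) and 0.13 (adjusted p = 0.476).

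The balance of the LDH subunits was not shown to shift. LDHB was 63.8 ± 4.15% of LDH FPKM at the thermoneutral temperature and 63.3 ± 4.62% under heat stress (n = 3 each), and the log2 ratio of LDHB to LDHA differed by −0.03 (two-sided exact permutation test, p = 0.9, adjusted p = 0.9 over the 3 ratios tested). With 3 libraries against 3 this test cannot give a p below 0.1. For HK2 to HK1 the log2 ratio differed by 0.03 (exact permutation p = 0.8, adjusted p = 0.9). Among the lactate carriers, the log2 ratio of SLC16A3 to SLC16A1 was −2.44 ± 0.14 and −1.95 ± 0.45, a difference of 0.49 (exact permutation p = 0.3, adjusted p = 0.9). SLC16A1, which encodes MCT1, had 78.1, 85.2 and 112 against 88.5, 57.1 and 63.8 CPM (log2 change −0.40, SE 0.20, adjusted p = 0.195). In heat stress replicate 1 it was as high as in the thermoneutral libraries. SLC16A3, which encodes the export-type carrier MCT4, stayed between 12.5 and 15.9 CPM in all libraries (adjusted p = 0.678).

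FBP1, which hydrolyses fructose 1,6-bisphosphate against the direction of glycolysis, had the largest fall among the genes that passed. It lies on the Z chromosome (41459118 to 41469158) and measured 12.6, 10.9 and 11 CPM at the thermoneutral temperature and 6.95, 5.45 and 5.61 CPM under heat stress (1.92-fold, log2 change −0.94, SE 0.16, adjusted p = 0.0119). No heat stress library came near the thermoneutral range. FBP1 and the adjacent FBP2 row, 4533 bp away, gave a combined FPKM that was 98.7% or more FBP1 in the group means.

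Of the 5 glycogen genes tested, 2 fell and 3 did not pass, where 9.52% of all genes tested were lower and 10.2% higher. GYS1, glycogen synthase of muscle and other tissues (chromosome 33, 6710500 to 6728373), fell 1.63-fold, from 47.6, 55.3 and 58.0 to 35.4, 32.1 and 31.2 CPM (log2 change −0.71, SE 0.10, adjusted p = 0.0092). PYGB, the brain-type glycogen phosphorylase that releases glucose 1-phosphate, fell 1.28-fold, from 437, 441 and 452 to 369, 333 and 341 CPM (SE 0.07, adjusted p = 0.0185). So the genes of storage and of release that passed were both lower. Per length PYGB was the higher of the pair, at 130 ± 1.73 FPKM against 16.8 ± 1.58 FPKM for GYS1 in the thermoneutral group. GBE1, the branching enzyme, had log2 change 0.26 (SE 0.12, adjusted p = 0.170), UGP2, which makes UDP-glucose, −0.28 (SE 0.12, adjusted p = 0.132), and PGM1, phosphoglucomutase, −0.22 (SE 0.10, adjusted p = 0.150). In these 3 genes the 2 groups overlapped.

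The PFKFB enzymes set the level of fructose 2,6-bisphosphate, the activator of phosphofructokinase, and neither passed. PFKFB3, the form with high kinase activity, had 39.4, 37.2 and 32.8 against 38.8, 44.7 and 44.7 CPM (log2 change 0.23, SE 0.10, adjusted p = 0.141). PFKFB4 had 3.03, 1.69 and 2.53 against 2.25, 0.969 and 1.61 CPM (log2 change −0.59, SE 0.37, adjusted p = 0.284). PFKFB3 was above the thermoneutral range in heat stress replicates 2 and 3. The row on the opposite strand that overlaps PFKFB4, HSD17B10, was lower itself (log2 change −0.42, adjusted p = 0.0252).

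The calls were not stable to dropping a library. Such fits have fewer libraries, and in most of them fewer genes of the whole table passed too. With all libraries, 9.52% of all genes tested were lower and 10.2% higher. Each library was dropped in turn, which gave 6 fits. Of the 12 genes that passed, 0 passed in all 6. All 12 kept their sign in each fit. Their groups did not overlap, so dropping a library could hardly turn a sign. LDHB and GYS1 passed in 5 of the 6, FBP1 in 4, GAPDH in 3, and ALDOC and PYGB in 2. The other 6 genes, HK1, PFKL, TPI1, ENO2, LDHA and PKM, passed in 1. Dropping thermoneutral replicate 1 left 6 genes lower and 0 higher (5.11% and 5.48% of all genes tested), dropping replicate 2 of that group left 2 and 0 (1.40% and 1.12%), and dropping replicate 3 left 4 and 0 (4.13% and 3.55%). In the heat stress group, 11 genes were lower and 1 higher when replicate 1 was dropped (10.5% and 12.7% of all genes), 4 and 0 when it was replicate 2 (4.32% and 4.91%), and 0 and 0 when it was replicate 3 (0.964% and 0.908%). For that last fit edgeR gave 13 genes with an unadjusted p under 0.05 that were lower and 1 that was higher, against 14.0% and 14.2% of all genes, and the smallest adjusted p was 0.0511. Over the 6 fits the log2 change of LDHB lay between −0.58 and −0.51 and that of GYS1 between −0.78 and −0.64. The median log2 change of the 26 genes ran from −0.37 to −0.26 over the same fits.

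Neighbouring routes of carbon were counted in the same fit, with gene lists that were chosen with earlier results of these data known. Their shares of called genes in either direction ran from 11.1% to 41.7%, against 19.8% of all genes (9.52% lower and 10.2% higher). Of the 8 lists, 5 lay between 25% and 28.6%: those of the further glycolytic enzymes, the tricarboxylic acid cycle, the other carriers, the hypoxia-inducible factor system and glucose and energy sensing. Of the 36 genes these lists had past the threshold, 4 passed in all 6 fits with a library dropped (GALM, TALDO1, P4HA1 and TBC1D1), 13 passed in 1 and HIF3A in 0. With the replicate number as a block 9 of the 36 did not pass: ADPGK, G6PC3, PDHA1, PDK2, FH, HIF1A, HIF3A, BNIP3 and AKT1. Neither SLC16A12 nor AKT1 passed with limma-voom, and ADPGK, PPP1R3C, BNIP3 and AKT1 did not with upper-quartile scaling. Of 8 tested genes of the pentose phosphate pathway, which makes NADPH and ribose, 3 were lower and 0 higher (median log2 change −0.29; at an unadjusted p under 0.05, 5 genes in either direction, against 36.6% of all genes). TALDO1, transaldolase, fell 1.56-fold from 242 ± 19.9 to 155 ± 4.76 CPM, PGD, which makes NADPH, 1.33-fold and RPIA 1.23-fold. In the tricarboxylic acid cycle 4 of 18 were lower and 1 higher (median −0.19). At an unadjusted p under 0.05 with edgeR there were 12 genes in either direction, against 36.6% of all genes. All 3 heat stress libraries lay below all 3 thermoneutral libraries in 13 of the 18, against 21.0% of all genes tested, and above them in 1, against 21.5%. A broad small fall was thus not particular to the genes of glucose use. CS, citrate synthase, went from 126 ± 4.42 to 97.4 ± 5.73 CPM, and ACO1, IDH2 and MDH2 fell 1.32-fold, 1.31-fold and 1.31-fold, while FH, fumarase, rose 1.25-fold.

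At the step that follows glycolysis, pyruvate dehydrogenase with its kinases and phosphatases, 2 of 12 were lower and 3 higher (median 0.02). The shares over all genes tested were 9.52% and 10.2%. PDHA1, the catalytic subunit, and the inhibitory kinase PDK2 fell 1.19-fold and 1.35-fold. The kinases PDK3 and PDK4 rose, PDK4 from 6.91 ± 0.235 to 20.1 ± 8.51 CPM, and so did the activating phosphatase PDP2, from 26.3 ± 1.76 to 39.5 ± 2.32 CPM. Kinases and a phosphatase of the complex, which act in opposite directions, were thus both among the genes that rose.

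**Figure D4:**
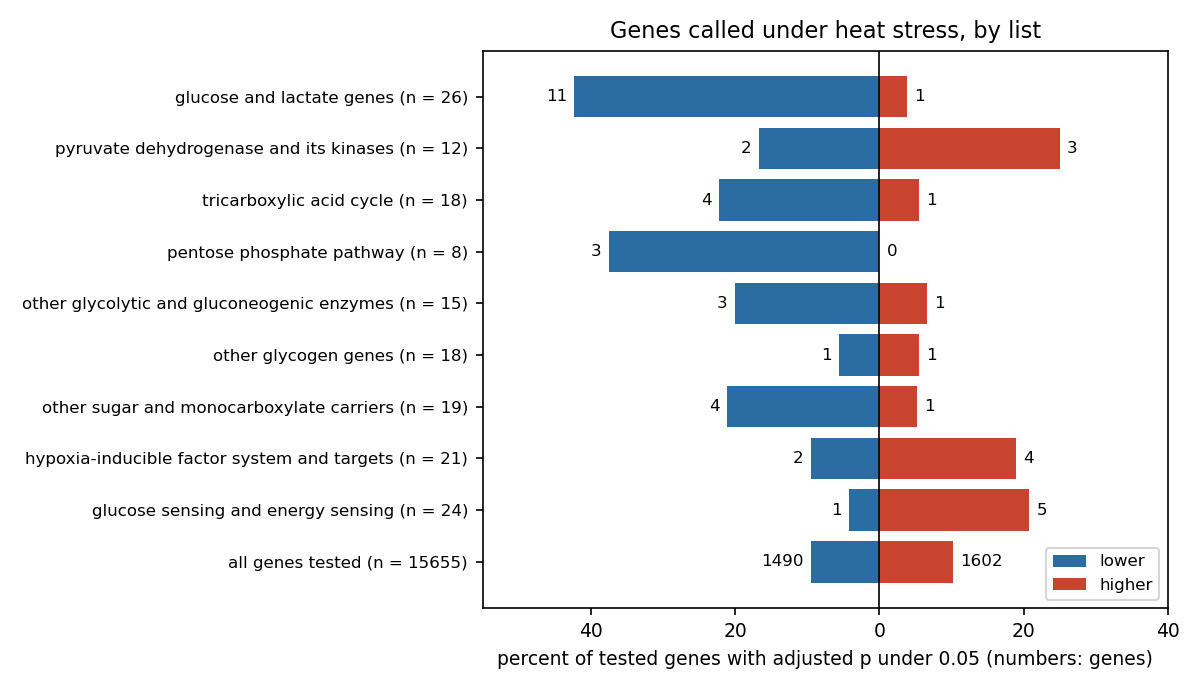
Percent of tested genes with an adjusted p under 0.05 that were lower (left, blue) or higher (right, red) under heat stress, for the glucose and lactate genes, 8 related lists and all genes tested; the numbers beside the bars are genes and n is the number tested. The glucose and lactate genes have 11 lower and 1 higher of 26, and all genes tested have 1490 lower and 1602 higher of 15655.

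Other carriers of sugars and monocarboxylates had 4 of 19 tested lower and 1 higher (median −0.07), against 9.52% and 10.2% of all genes tested. SLC5A1, the sodium-coupled glucose transporter SGLT1, fell 1.54-fold, from 219 ± 32.2 to 142 ± 7.86 CPM, and SLC2A10 2.19-fold, from 17.1 ± 2.39 to 7.82 ± 1.43 CPM. The monocarboxylate family members SLC16A7 (MCT2) and SLC16A5 fell from 13.5 to 6.73 and from 20.6 to 8.20 CPM. SLC16A12, known as a creatine carrier in mammals, rose 2.82-fold. BSG, basigin, the partner that brings MCT1 and MCT4 to the cell surface, had 800 to 837 CPM in all 6 libraries (adjusted p = 0.929). The mitochondrial pyruvate carrier genes MPC1 and MPC2 did not pass, with log2 changes of −0.12 (adjusted p = 0.368) and −0.07 (adjusted p = 0.531).

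Further glycolytic and gluconeogenic enzymes had 3 of 15 lower and 1 higher (median 0.05), against 9.52% and 10.2% of all genes tested. GALM, which interconverts the forms of the free hexose, fell 1.73-fold, from 47.0 ± 5.15 to 27.1 ± 0.909 CPM (adjusted p = 0.00873). ENO4, an enolase of sperm and cilia in mammals, fell 1.59-fold and the glucose 6-phosphatase G6PC3 1.27-fold, and ADPGK, an ADP-dependent glucokinase, rose 1.23-fold. Other glycogen genes had 1 of 18 lower and 1 higher (median −0.03): PGM3, an enzyme of the hexosamine route, fell 1.35-fold, and PPP1R3C, which targets protein phosphatase 1 to glycogen, rose from 17.6 ± 3.91 to 27.3 ± 3.34 CPM.

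Genes of the hypoxia-inducible factor system, which in mammals raises many glycolytic genes, had 2 of 21 lower and 4 higher (median 0.13). The shares over all genes tested were 9.52% and 10.2%. HIF1A fell 1.2-fold, from 161 ± 3.30 to 134 ± 6.93 CPM, and HIF3A 2.16-fold, from 1.95 ± 0.566 to 0.899 ± 0.0563 CPM. EGLN1, the oxygen sensor that marks HIF subunits for degradation, rose 1.32-fold, BNIP3 1.24-fold, P4HA1 1.63-fold and P4HA2, like P4HA1 a collagen prolyl hydroxylase, 4.93-fold. VEGFA, a standard target of the factor, was between 40.5 and 47.7 CPM in all libraries (adjusted p = 0.637). CA9, of the same list, had 7.57, 8.3 and 7.58 against 5.18, 4.45 and 7.04 CPM and did not pass (adjusted p = 0.119). All 3 heat stress libraries lay below all 3 thermoneutral libraries in 3 of the 21 genes, against 21.0% of all genes tested. They lay above them in 6, against 21.5%.

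Genes of glucose and energy sensing had 5 of 24 higher and 1 lower (median 0.18), against 10.2% and 9.52% of all genes tested. TBC1D1, a Rab GTPase-activating protein that restrains glucose transporter traffic, rose 2.34-fold, from 62.1 ± 8.30 to 145 ± 18.7 CPM. The insulin receptor gene INSR, the IGF1 receptor gene IGF1R, the kinase AKT1 and MLX, the partner of the glucose-sensing factors MLXIP and MLXIPL, rose 1.43-fold, 1.60-fold, 1.21-fold and 1.31-fold. PRKAB2, a subunit of AMP-activated kinase, fell 1.33-fold. TXNIP, a glucose-induced gene, went from 673, 805 and 838 to 770, 1224 and 1197 CPM and did not pass (adjusted p = 0.119).

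Marker genes of some cell types moved as well. Over all genes tested, 9.52% were lower and 10.2% higher. Of 7 tested macrophage markers 4 were lower and 0 higher, with a summed level of 145 to 167 CPM in the thermoneutral and 110 to 127 CPM in the heat stress libraries. Smooth muscle markers had 1 of 10 lower and a median log2 change of −0.37, with overlapping sums (5547 to 8916 against 5289 to 7048 CPM). The 7 epithelial markers had 0 calls with edgeR, 2 at an unadjusted p under 0.05, a median of 0.03 and sums of 6149 to 6969 against 6139 to 7354 CPM. Skeletal muscle markers summed to 51.1 to 101 against 27.6 to 42.4 CPM, nearly all of it ACTA1, which was lower. TNNT3 and TNNI2, also tested, had log2 changes of 0.25 and 0.87 and did not pass. TNNC2, PVALB and MB were at most 0.217 CPM. Among 8 fibroblast markers PDGFRA and LUM fell, with overlapping sums (3592 to 5351 against 3929 to 4123 CPM), and endothelial markers 1 of 7, EGFL7 (501 to 511 against 440 to 528 CPM). The 7 oviduct genes had 1 higher, EMX2, and 1 lower, WT1, and their sum was 788 to 945 in the thermoneutral and 966 to 1011 CPM in the heat stress libraries. For 3 genes of shell gland and magnum secretion, with 0 calls and 1 at an unadjusted p under 0.05, the sum was 72.4 to 76.9 against 81.8 to 101 CPM. Ciliated, T, B and plasma, erythroid and nerve markers had 0 calls with edgeR, 2 genes among them were under an unadjusted p of 0.05, and their sums overlapped between groups. The part of these cell types in the lower level of the glucose genes was not tested.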

How the data were processed

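Poly-A RNA of the uterovaginal junction was sequenced in 3 thermoneutral and 3 heat stress libraries, each a pool of 4 hens, per the labels' protocols. The authors deposited unnormalized counts for each gene. The submitters' processing notes name featureCounts 1.5.0-p3, HISAT2 2.0.5, fastp and the build GRCg6a. The deposited FPKM values were made by the authors, per the file headers; how is not stated. Neither the annotation release nor the strand setting was given.

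The counts of all 20285 rows were fitted with edgeR 4.0.16 in R 4.3.3 (filterByExpr by group, 15655 genes kept, TMM, robust quasi-likelihood test, Benjamini-Hochberg over all genes, threshold 0.05). The SE of a log2 change is its size over the square root of the F statistic. CPM use TMM-scaled library sizes. Ratios used log2(FPKM + 0.1) and a two-sided exact permutation test, adjusted over 3 ratios. Left-out libraries were refitted with the filter applied anew. Tried besides were 2 other scalings (upper-quartile, relative log expression), the unfiltered table, a stricter filter (a mean of 5 CPM, and 1 CPM throughout a group), limma-voom (limma 3.58.1), DESeq2 1.42.0 and the replicate number as a block. The fit was tested on simulated data. Libraries of a group differed by more than counting noise (chi-square per degree of freedom 23.5 to 115).

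Members and lists were chosen with earlier results of these data known. Every member is accounted for. Every library is given for members past the threshold and for LDHA, LDHB, GAPDH, SLC2A1, HK1, HK2, PFKFB3, PFKFB4 and PCK1. Of each related list up to 6 genes past the threshold are named by adjusted p. BSG, MPC1, MPC2, VEGFA, CA9 and TXNIP were added after their values were seen. A planned promoter motif search was not run, and no sequence was used.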

Additional observations from a re-analysis of the deposited data

How the results depend on the processing

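All 26 tested genes kept the sign of their change under each alternative of scaling, filter, tool, block and left-out library that tested them. For genes whose groups did not overlap, leaving out a library could hardly turn the sign. With upper-quartile scaling 12 genes were lower and 0 higher, since HK2 passed and PKM did not; over all genes the split was then 1265 higher to 1789 lower, against 1602 to 1490. With the stricter filter on low counts 12 of 24 genes were lower, against 12.7% of the genes then tested, and 0 were higher. DESeq2 called 13 lower and 1 higher (12.5% and 13.1% of all genes), limma-voom 11 and 1 (9.62% and 9.70%). With libraries left out, the genes lower ran from 0 to 11 and those higher from 0 to 1, and the median log2 change from −0.37 to −0.26. The log2 ratio of LDHB to LDHA then ran from −0.20 to 0.11, that of HK2 to HK1 from −0.07 to 0.12 and that of SLC16A3 to SLC16A1 from 0.35 to 0.74, and none of these passed, which the number of libraries does not allow.

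The labels give the groups the same replicate numbers. Same-numbered libraries correlated at −0.048, 0.250 and 0.072 in their deviations from the group means. Libraries with different numbers correlated at −0.274 to 0.207. With 3 libraries per group, these values cannot tell whether same-numbered libraries share more than a number. With the replicate block 10 genes were lower and 1 higher (9.14% and 8.25% of all genes), and PFKL did not pass; paired signs gave the ratios exact permutation p-values of 0.75, 0.75 and 0.5. The planned ratio of SLC2A3 to SLC2A1 was not run, because no row carries the symbol SLC2A3. Depth limits PFKM and PFKFB4, near 1 to 3 CPM, and leaves FBP2, PCK1 and GYS2 untested.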
